A study of Rattus norvegicus with 3 samples.

Results

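The cells described here are the regulatory T cells and their precursors of a rat thymocyte library, meaning every cell that the authors labelled Pre-Treg or Treg. A cell took the authors' projected label, or its cluster name where no label had been projected, and all members had a projected label. There were 92 such cells among 8546 annotated cells, 55 labelled Pre-Treg (0.644%, 95% interval 0.485 to 0.837%) and 37 labelled Treg (0.433%, 0.305 to 0.596%). Intervals of shares are exact Clopper-Pearson intervals and, like all intervals given here, cover counting error only. The library was made by droplet sequencing from collagenase-digested thymus, and the donors were Lewis rats (an inbred strain) aged 8 weeks, whose number is not given in the sources used here. All groups compared are labels within this 1 thymocyte sample, so differences between them lack replicates, and they are given with counting intervals in place of tests. The labels were assigned from the expression of these same cells, so every gene difference between labels is a description.

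Regulatory T cells hold immune responses in check, and the transcription factor Foxp3 sets up and keeps their programme. In the thymus they arise among developing CD4 cells that bind self antigen strongly. Antigen receptor signals first turn on NF-kappaB genes, tumour necrosis factor receptor family members and Il2ra, the alpha chain of the interleukin 2 receptor, and interleukin 2 signals then support Foxp3.

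Both labels came from deeper cells than the bulk of the library. Depth is given in unique molecular identifiers (UMIs), of which 1 stands for 1 captured RNA molecule. The Pre-Treg cells held 446968 UMIs in all, 3071 to 17318 per cell with a median of 7210. The Treg cells held 316856, 3280 to 16684 per cell with a median of 8183. DP cells, the CD4 and CD8 double-positive stage, had a median of 3205.5. Among the authors' clusters, 52 Pre-Treg cells and all 37 Treg cells lay in the cluster Mature SP, and the other 3 Pre-Treg cells lay in Early SP. The library shared 38 of its 8574 barcodes with the stromal library of the same study, and none of the 38 was a member.

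**Figure D1:**
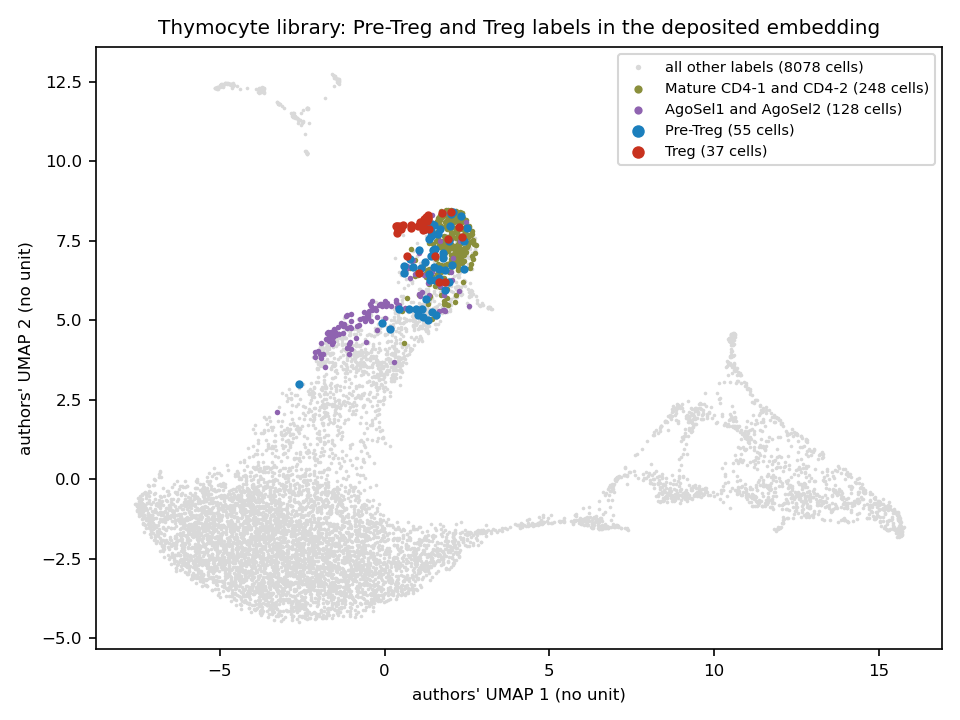
Authors' deposited UMAP coordinates (no unit) of all 8546 annotated thymocyte-library cells, 1 point per cell, with the 55 Pre-Treg, 37 Treg, 248 mature CD4 and 128 AgoSel cells coloured. The Treg points reach a median of 7.92 on the second axis and the Pre-Treg points spread lower, with a median of 6.75.

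The 3 genes that should mark these cells were high in the Treg label and scarce in the Pre-Treg label. Foxp3 stood at 180 CPM (the gene's UMIs per 1000000 UMIs of the label) in Treg, with an exact Poisson interval of 136 to 233, and at 51.5 CPM (32.6 to 77.2) in Pre-Treg. It was found in 21 of 37 Treg cells (56.8%, median depth 8183), with 0 to 7 UMIs per cell and a median of 1. Only 4 of 55 Pre-Treg cells (7.27%, median depth 7210) held it, with 1, 1, 6 and 15 UMIs, so a single cell gave most of the Pre-Treg level. Without that cell the Pre-Treg level was 18.6 CPM. In DP, the type that should lack Foxp3, 10 of 5202 cells (0.192%, median depth 3205.5) held a UMI. After each cell was thinned to 2000 UMIs the shares were 21.6% in Treg, 7.27% in Pre-Treg and 0.103% in DP. With totals that leave out mitochondrial, ribosomal protein and haemoglobin genes, Foxp3 stood at 282 CPM in Treg and 80.3 CPM in Pre-Treg. Members carried 80 of the 121 Foxp3 UMIs of the library (66.1%).

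Treg was followed by Pre-Treg in the order of Foxp3 levels, 3.50-fold lower (2.12 to 5.95), and Pre-Treg by AgoSel2 at 10.0 CPM, a further 5.13-fold lower (2.13 to 14.1). Without the cell of 15 Foxp3 UMIs, the 18.6 CPM of Pre-Treg lay within the interval of AgoSel2, 4.04 to 20.7 CPM.

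Ctla4, the inhibitory receptor that competes with CD28 for its ligands, stood at 139 CPM (101 to 186) in Treg, in 15 of 37 cells. In Pre-Treg it stood at 22.4 CPM (10.7 to 41.1), in 7 of 55 cells, which overlaps the 31.7 CPM (24.8 to 39.9) of mature CD4 cells, the labels Mature CD4-1 and Mature CD4-2 together. Ctla4 had a UMI in 12.7% of Pre-Treg cells, 16.9% of mature CD4 cells (median depth 8618.5) and 0.884% of DP cells.

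Il2ra stood at 294 CPM (237 to 360) in Treg, in 24 of 37 cells with up to 24 UMIs. In Pre-Treg it stood at 53.7 CPM (34.4 to 79.9), in 7 of 55 cells. DP cells held 67.5 CPM of Il2ra (63.8 to 71.3), with a UMI in 17.6% of them, so the Pre-Treg share of 12.7% was not above that background. The Treg share of 64.9% was.

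By these markers most cells labelled Treg matched their name, and most cells labelled Pre-Treg did not stand apart from mature CD4 cells. At least 1 of Foxp3, Ctla4 and Il2ra was found in 86.5% of Treg cells and in 25.5% of Pre-Treg cells, against 24.2% of mature CD4 and 18.5% of DP cells. After thinning to 2000 UMIs the shares were 54.1%, 12.7%, 6.85% and 13.0% in the same order. None of the 3 was detected in 41 Pre-Treg cells, whose median depth was 6925 UMIs, or in 5 Treg cells. The cells are therefore called by their labels throughout.

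**Figure D2:**
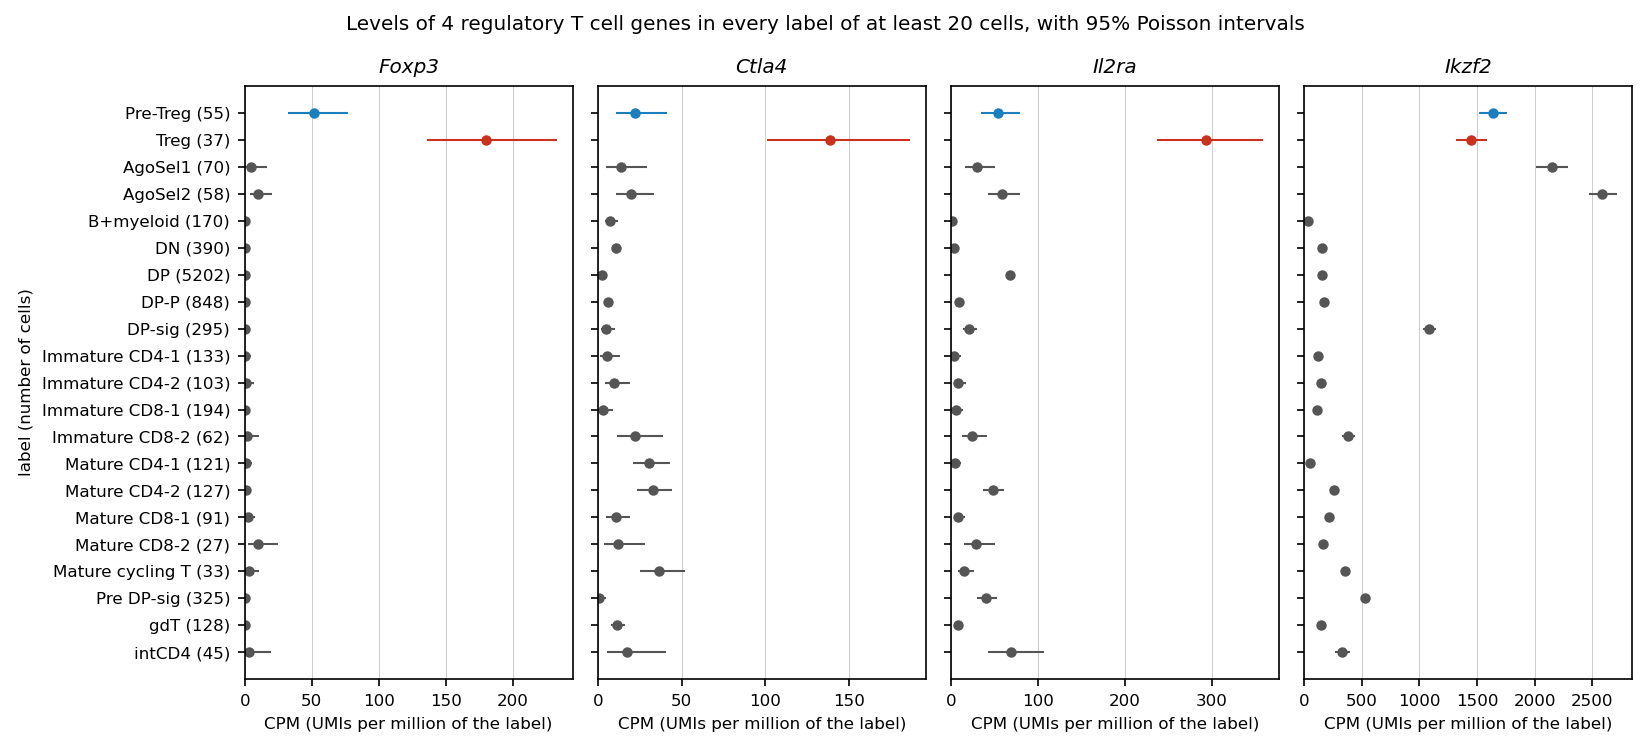
Levels of Foxp3, Ctla4, Il2ra and Ikzf2 in CPM (linear axes, 1 panel per gene) in each of the 21 labels of at least 20 cells, with exact 95% Poisson intervals as bars and the number of cells beside each label. Treg is highest for the first 3 genes (180, 139 and 294 CPM), and AgoSel2 and AgoSel1 are highest for Ikzf2.

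The promoters of the 3 marker genes are printed because Foxp3, Ctla4 and Il2ra were all highest in the same label. Each is 300 bases, 250 before and 50 after the annotated start, from RefSeq on build GRCr8, which is not the build of the counts. Capitals mark matches on either strand to GGAAA, the core of NFAT sites (TTTCC on the other strand), and to TATAAA, the TATA box.
Foxp3 (chrX:17595651-17595950, minus strand): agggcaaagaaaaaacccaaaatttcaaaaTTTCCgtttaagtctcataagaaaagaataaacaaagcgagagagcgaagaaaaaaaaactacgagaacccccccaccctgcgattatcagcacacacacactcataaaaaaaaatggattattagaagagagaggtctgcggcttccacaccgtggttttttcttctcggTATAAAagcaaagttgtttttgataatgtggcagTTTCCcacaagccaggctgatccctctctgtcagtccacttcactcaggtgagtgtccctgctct
Ctla4 (chr9:69813171-69813470, plus strand): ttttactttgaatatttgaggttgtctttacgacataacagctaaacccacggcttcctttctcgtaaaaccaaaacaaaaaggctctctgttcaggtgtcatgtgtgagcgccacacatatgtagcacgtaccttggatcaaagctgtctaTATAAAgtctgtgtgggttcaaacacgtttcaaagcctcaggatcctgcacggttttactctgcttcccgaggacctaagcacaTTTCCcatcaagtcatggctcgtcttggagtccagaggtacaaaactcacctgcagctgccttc
Il2ra (chr17:71808426-71808725, minus strand): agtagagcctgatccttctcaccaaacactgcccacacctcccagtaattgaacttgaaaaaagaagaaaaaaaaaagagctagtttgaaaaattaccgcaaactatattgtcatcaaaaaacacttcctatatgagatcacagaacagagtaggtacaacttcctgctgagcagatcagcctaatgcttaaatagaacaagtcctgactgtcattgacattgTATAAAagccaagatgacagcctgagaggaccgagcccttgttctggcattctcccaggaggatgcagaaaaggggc
Each window held TATAAA once, a motif found in 14.3% of 27457 promoters of that length. GGAAA occurred 2 times in the Foxp3 window, 1 time in the Ctla4 window and 0 times in the Il2ra window, and in 62.5% of all promoters. STAT motifs (TTCNNNGAA, 8.68% of promoters), AP-1 motifs (TGANTCA, 7.33%) and forkhead motifs (GTAAACA, 3.76%) were searched on both strands and were not among the letters of these windows. A match is a description of the letters and not of a bound site.

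Ikzf2, which encodes Helios, a transcription factor of the Ikaros family linked to thymic regulatory T cells, was high in both labels. It stood at 1635 CPM (1519 to 1758) in Pre-Treg and 1449 CPM (1319 to 1587) in Treg, against 169 CPM (152 to 186) in mature CD4. In Pre-Treg it was found in 33 of 55 cells, with a median of 2 and a maximum of 131 UMIs, and in Treg in 33 of 37 cells, with a median of 9 and a maximum of 67. In mature CD4 it was found in 66 of 248 cells and in DP in 28.1% of cells. Ikzf2 was not particular to the members, since DP-sig held 1087 CPM, AgoSel1 2150 CPM and AgoSel2 2589 CPM. Ikzf4, which encodes the related factor Eos, stood at 53.7 CPM (34.4 to 79.9) in Pre-Treg and 145 CPM (106 to 194) in Treg, against 9.69 CPM (6.07 to 14.7) in mature CD4.

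Within Pre-Treg, the few cells with Foxp3 or Il2ra were cells with Ikzf2. All 4 Pre-Treg cells with Foxp3 and all 7 with Il2ra also held Ikzf2, and 3 cells held both Foxp3 and Il2ra. Ikzf2 counts in the 4 Foxp3-bearing cells were 11, 49, 61 and 99 UMIs. The 33 Pre-Treg cells with Ikzf2 were deeper, with a median of 9139 UMIs against 6629 in the 22 without, and the part of depth in this co-occurrence was not tested. Levels per UMI between these Pre-Treg cells also differed for Icos, a costimulatory receptor. It stood at 374 CPM (308 to 451) with Ikzf2 and 113 CPM (65.8 to 181) without. Tnfrsf9 stood at 87.7 and 6.65 CPM, the latter on very few UMIs. Bcl2l11, which encodes the death-promoting protein Bim, stood at 108 CPM (73.8 to 152) and 39.9 CPM (14.6 to 86.8), with overlapping intervals. This split of the cells was chosen after their values were seen.

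In Treg, 15 of 37 cells (40.5%, 24.8 to 57.9%) held both Foxp3 and Il2ra, 6 held Foxp3 without Il2ra, 9 held Il2ra without Foxp3 and 7 held neither. After thinning to 2000 UMIs both were found in 8.11% of Treg cells. Of the 21 Foxp3-bearing Treg cells, 20 held Ikzf2.

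**Figure D3:**
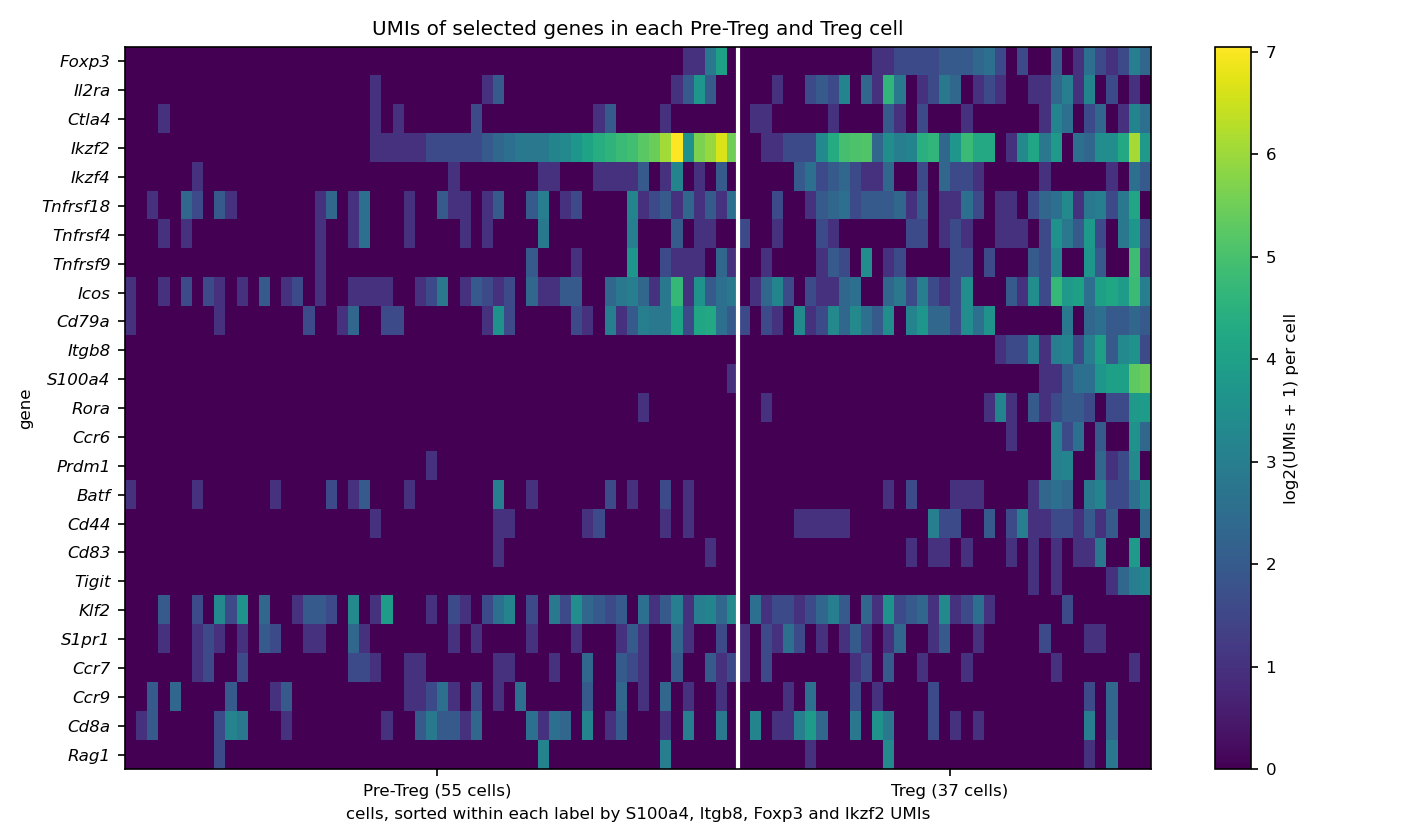
UMIs of 25 genes in each of the 55 Pre-Treg and 37 Treg cells, as log2(UMIs + 1) in colour, with cells sorted within a label by S100a4, Itgb8, Foxp3 and Ikzf2. Foxp3 is found in 4 Pre-Treg and 21 Treg cells, and the 10 Treg cells at the right edge hold S100a4 together with Itgb8.

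Set against mature CD4 cells, the 92 members were at least 3-fold higher in Foxp3, Ikzf2, Ikzf4, the interleukin 2 receptor genes Il2ra and Il2rb, and Rel and Nfkb2, among other listed genes. A gene passed the rule of size used here when its CPM differed at least 3-fold and the higher group held 20 or more of its UMIs, spread over no fewer than 20% of the cells. For this rule fewer than 3 UMIs in the lower group were set to 3, while a ratio printed against 1 or 2 UMIs is that of the counts themselves, with its interval. By this rule 39 of 5095 genes (0.765%) were higher in the members and 7 (0.137%) were lower, 0.903% either way. With each cell thinned to 2000 UMIs the counts were 8 and 2, of the 1498 genes that could then be compared. Without cells that held any B cell marker UMI or 5 or more myeloid UMIs they were 11 and 48 of 4812 genes. Of the 39 genes 5 were among the 11, on 39 members and 145 mature CD4 cells. Taken alone, Pre-Treg had 13 of 4857 genes higher (0.268%) and 24 lower (0.494%), and Treg had 95 of 4882 genes higher (1.95%) and 69 lower (1.41%). Of the 39 genes, 35 were also called in Treg alone and 8 in Pre-Treg alone.

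Among 20 transcription factors of regulatory T cells, 18 could be compared, and Foxp3, Ikzf2 and Ikzf4 were at least 3-fold higher in the members, none lower. The median ratio of the list was 1.03, against 0.983 over all genes tested. Ikzf2 was 9.23-fold higher (8.22 to 10.4) and Ikzf4 9.46-fold (5.79 to 16.04). Foxp3 was 119-fold higher (31.9 to 999), on only 2 UMIs in the 248 mature CD4 cells.

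Of the receptors for interleukin 2 and related cytokines, 6 of 12 genes could be compared, and Il2ra and Il2rb, which encode 2 chains of the interleukin 2 receptor, passed the rule, with a list median of 0.973. Il2ra was 10.3-fold above mature CD4 in Treg (7.39 to 14.3) and 1.88-fold in Pre-Treg (1.12 to 3.04). One Pre-Treg cell held 12 of the 24 Il2ra UMIs, and without it the level was 27.6 CPM, below the 28.6 CPM of mature CD4. Il2rb was 13.3-fold higher in Treg (6.70 to 27.6), and in Pre-Treg its 11 UMIs were too few for the rule. Il7r, the receptor for interleukin 7, stood at 152 CPM in Pre-Treg and 218 CPM in Treg against 298 CPM in mature CD4. Il2 itself, singled out after its value was seen, had 0 of the 763824 UMIs of the members, and the 3 UMIs that a count of 0 allows would be 3.93 CPM.

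Of the costimulatory and inhibitory receptors, 12 of 16 genes could be compared and 3 passed, all higher in the members: Tnfrsf9, Tnfrsf4 and Tnfrsf18, which encode the costimulatory receptors 4-1BB, OX40 and GITR. The list's median ratio was 1.65. Tnfrsf18 stood at 166 CPM in Pre-Treg and 328 CPM in Treg against 63.9 CPM in mature CD4, ratios of 2.59 (1.93 to 3.45) and 5.14 (3.96 to 6.66). Tnfrsf4 ratios were 2.77 (1.71 to 4.40) and 9.64 (6.71 to 13.9), and Tnfrsf9 ratios 5.96 (3.29 to 10.9) and 25.9 (16.1 to 43.0). For all 3 receptors the Pre-Treg level lay between those of mature CD4 and Treg. Cd40lg, the ligand through which helper T cells activate B cells, was lower, at 64.9 CPM in Pre-Treg and 25.2 CPM in Treg against 126 CPM.

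Genes that respond to antigen receptor signals had a median ratio of 2.40 in the members, over the 10 of 16 that could be compared. Rel and Nfkb2, which encode the NF-kappaB subunits c-Rel and p100, passed the rule. Rel was 3.04-fold above mature CD4 in Pre-Treg (2.30 to 4.01) and 4.09-fold in Treg (3.07 to 5.41). Nr4a3, an early nuclear receptor gene, stood at 130 CPM (98.5 to 168) in Pre-Treg and 60.0 CPM (36.1 to 93.6) in Treg, against 34.8 CPM (27.6 to 43.4) in mature CD4. Nr4a1, which encodes Nur77, stood at 101 CPM (73.4 to 135) and 72.6 CPM (46.0 to 109) against 38.3 CPM (30.7 to 47.3).

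Of 9 survival and death regulators, 7 could be compared with mature CD4, and Bcl2a1 and Bcl2l1, which encode the survival proteins A1 and Bcl-xL, passed the rule in the pooled members, with a list median of 1.12. Bcl2l1 was 5.04-fold above mature CD4 in Treg (3.36 to 7.49) and 1.75-fold in Pre-Treg (1.02 to 2.87). Bcl2l11 was 4.02-fold above mature CD4 in Pre-Treg (2.56 to 6.28) and 1.19-fold in Treg (0.488 to 2.55). Bcl2 stood at 365 CPM in Pre-Treg, 170 CPM in Treg and 382 CPM in mature CD4.

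Genes of maturation and egress had a median ratio of 0.826 over 8 of 16 genes, and CD4 lineage and stage genes one of 0.732 over 5 of 12. No gene of the latter list passed. S1pr1, the receptor that guides cells out of the thymus, stood at 76.1 CPM in Pre-Treg, 97.8 CPM in Treg and 182 CPM in mature CD4. Cd44, an adhesion receptor of activated and memory T cells, passed the rule, at 145 CPM in Treg and 17.9 CPM in Pre-Treg against 14.1 CPM. Ccr7 and Ccr9, chemokine receptors of maturing thymocytes, stood at 76.1 and 103 CPM in Pre-Treg and at 41.0 and 53.7 CPM in Treg.

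The 10 named genes with the highest ratio to mature CD4 were Foxp3, Smpdl3a, Maf, Irak3, Tnfrsf9, Alox5ap, Ikzf4, Ikzf2, Tiam1 and Slfn4. Maf, which encodes the transcription factor c-Maf, was 19.5-fold higher (11.8 to 34.0). It was found in 17 of 37 Treg cells at 347 CPM and in 6 of 55 Pre-Treg cells at 17.9 CPM. Smpdl3a, a phosphodiesterase gene, was 21.1-fold higher (10.8 to 45.9) and was likewise found in 21 Treg and 5 Pre-Treg cells. Irak3, an inhibitor of interleukin 1 and Toll-like receptor signals, was 14.9-fold higher (7.91 to 30.3). Slfn4, a Schlafen family gene whose reads could be shared with close copies, was 8.00-fold higher in the pooled members but 0.577-fold in Pre-Treg alone (0.267 to 1.11).

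Among the 7 genes lower in the members were Sphk1, Slc4a4, Flot1, Klhdc1 and Tbck. Sphk1, the kinase that makes sphingosine 1-phosphate, had 1 UMI in the members and 74 UMIs in 52 mature CD4 cells, a ratio of 24.9 (4.33 to 997). Sphk1 was low in each label on its own, with 0 UMIs in Pre-Treg and 1 in Treg. Slc4a4, a bicarbonate transporter gene, stood at 103 CPM in Pre-Treg and 31.6 CPM in Treg against 285 CPM.

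Pre-Treg and Treg were then compared directly. Of 3625 genes, 44 were at least 3-fold higher in Pre-Treg (1.21%) and 81 in Treg (2.23%), 3.45% either way, and the median ratio of Pre-Treg to Treg over all of them was 1.07. Without the cell with the most UMIs of each gene, the counts were 21 and 38 of 3283 genes. With each cell thinned to 2000 UMIs they were 17 higher in Pre-Treg and 12 in Treg, of only 843 genes compared. Of the 17 and 12, 2 and 8 were among the 44 and 81. Pre-Treg has more cells, so its thinned total was larger and the fixed minimum of UMIs was easier to reach there. The thinned counts can therefore not tell whether depth set the balance between the labels. With only 37 Treg cells, many of these ratios have wide intervals.

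The listed genes that were higher in Treg came from several lists. Among transcription factors Foxp3 and Batf passed, 2 of 18, with a list median of 1.14. Batf, an AP-1 family factor of effector T cells, stood at 164 CPM (123 to 215) in Treg and 53.7 CPM (34.4 to 79.9) in Pre-Treg. Il2ra and Il2rb passed, 2 of 5 cytokine receptor genes. Tnfrsf9, Tnfrsf4, Ctla4 and Cd83 passed, 4 of 13 costimulatory and inhibitory receptors. Icos stood at 682 CPM (594 to 779) in Treg and 286 CPM (239 to 340) in Pre-Treg, under the 3-fold limit. S100a4, Cd44 and Ccr8 passed among 10 maturation and homing genes, and Ccr8, a chemokine receptor of activated regulatory T cells, stood at 97.8 CPM (66.5 to 139) against 13.4 CPM (4.93 to 29.2). Of 8 antigen receptor response genes and 5 CD4 lineage and stage genes none passed, with list medians of 0.842 and 1.06. Rora was the 1 gene of 9 from other agonist-selected lineages that could be compared, and it passed.

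Bcl2l11 was the listed gene that was called higher in Pre-Treg, at 85.0 CPM (60.2 to 117) in 22 of 55 cells against 25.2 CPM (10.9 to 49.7) in 6 of 37 Treg cells. Lef1, Bach2 and Tcf7, transcription factor genes of naive and developing T cells, were higher in Pre-Treg by less than 3-fold, at ratios of 2.48 (2.14 to 2.88), 2.45 (2.04 to 2.95) and 1.95 (1.55 to 2.47). The ratio of Satb1, a chromatin organiser of thymocytes, was 1.72 (1.53 to 1.94).

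The named genes highest in Pre-Treg over Treg were sparse: Rnf144a, Slc25a25, Resp18, Nsg2, Zfp455l1, Esd, Prpsap1, Pja1, Sipa1l3 and Vamp1. They had 20 to 43 UMIs in Pre-Treg and 2 to 5 in Treg. Rnf144a, a ubiquitin ligase gene, had 30 UMIs in 18 Pre-Treg cells and 3 UMIs in 3 Treg cells, a ratio of 7.09 (2.20 to 36.3). Resp18, a gene of secretory granules in endocrine cells, had 43 UMIs in 16 Pre-Treg cells and 5 in 3 Treg cells, a ratio of 6.10 (2.42 to 19.7). The ratios were also taken in the 31 Pre-Treg and 8 Treg cells without any B cell marker UMI and with fewer than 5 myeloid ones. There 7 of these 10 came out below 1, at 0.540 for Sipa1l3 to 0.878 for Pja1 and Vamp1. These 7 genes had only 2 or 3 UMIs in all 37 Treg cells, and fewer than 3 UMIs were set to 3. Their direction in the 8 Treg cells can therefore not be told.

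The named genes highest in Treg over Pre-Treg were S100a4, S100a6, Itgb8, Slfn4, Rora, Gvin1, Smco4, Maf, Atxn1 and Ifi27. S100a4, a calcium-binding protein of motile and memory cells, had 137 UMIs in 10 Treg cells and 1 UMI in Pre-Treg, a ratio of 193 (34.1 to 7688). S100a6, of the same family, had 110 UMIs in 8 Treg cells and none in Pre-Treg. Against a floor of 3 UMIs in the whole label it was 51.7-fold higher, and the lower limit of its interval was 41.4. Itgb8, an integrin chain through which regulatory T cells activate transforming growth factor beta, had 77 UMIs in 14 Treg cells and none in Pre-Treg. It was 36.2-fold higher against the same floor, with a lower limit of 28.7. Rora, which encodes a nuclear receptor of innate and tissue lymphocytes, had 56 UMIs in 14 Treg cells and 1 UMI in Pre-Treg, a ratio of 79.0 (13.6 to 3175). Slfn4 was 32.0-fold higher (17.1 to 67.7), Maf 19.4-fold (9.51 to 46.1) and the interferon-inducible Ifi27 18.2-fold (8.88 to 43.2), and reads of Slfn4, Gvin1 and Ifi27 could be shared with close family members. Members held 77 of the 97 Itgb8 UMIs of the library and 14 of the 20 cells with it, all 14 labelled Treg. The 6 cells outside the members held up to 6 UMIs each.

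**Figure D4:**
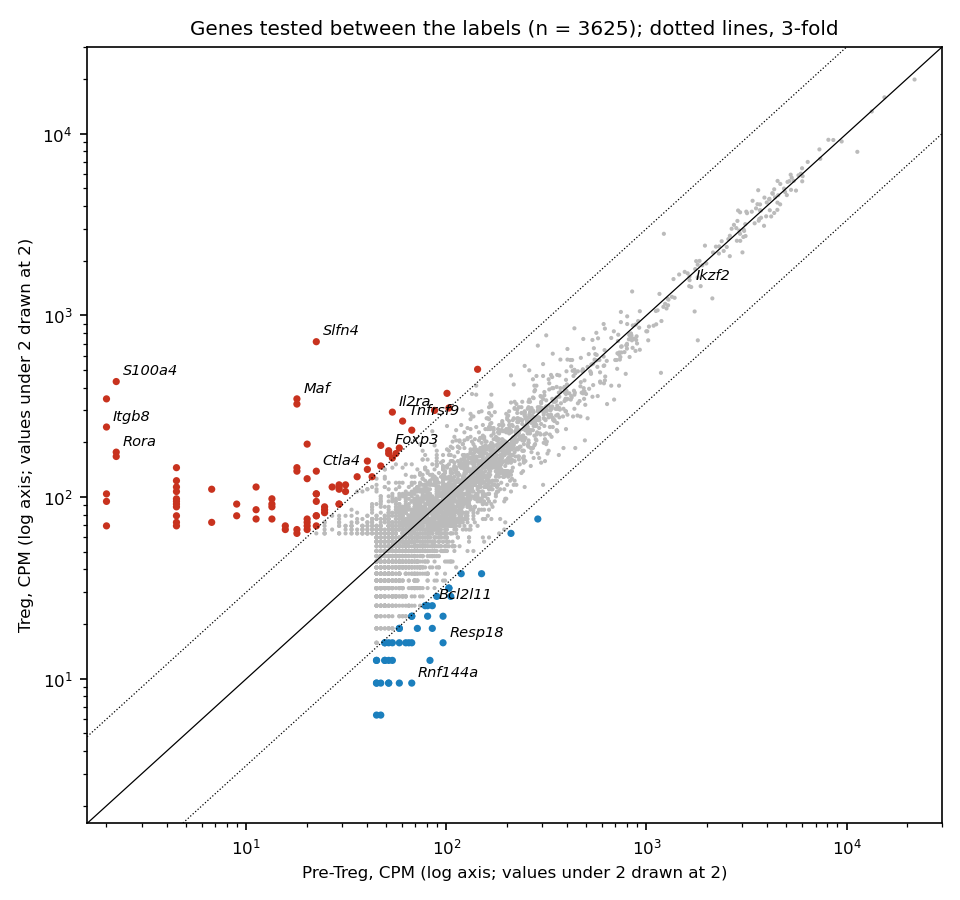
CPM in Pre-Treg (horizontal) against Treg (vertical) on log axes, 1 point for each of 3625 genes tested, with 44 genes at least 3-fold higher in Pre-Treg in blue and 81 in Treg in red. S100a4 and Itgb8 lie at the upper left, at 2.24 and 0 CPM in Pre-Treg, and Ikzf2 lies near the diagonal.

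Treg cells were not uniform, and many of the genes higher in Treg were concentrated in a minority of the cells. S100a4 was found in 10 of 37 Treg cells, with 1, 1, 3, 5, 5, 12, 15, 15, 38 and 42 UMIs, and all 10 also held Itgb8, which was found in 4 other Treg cells. Among the 10, 8 held Foxp3 and 9 held Ikzf2. Median depth was 9265 UMIs in these 10 and 7976 in the other 27, and this split was chosen after the values were seen. Without the 10 cells, 14 of 3484 genes were at least 3-fold higher in Treg than Pre-Treg, against 81 of 3625 with all Treg cells. Of the 14, 12 were among the 81. The ratio of Batf turned round, to 1.70 in favour of Pre-Treg.

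The listed genes that follow were picked after their values in the 10 and the 27 Treg cells were seen. Ccr6, a chemokine receptor of tissue lymphocytes, had 32 UMIs in 6 of the 10 and 1 UMI in the other 27. Prdm1, which encodes the effector factor Blimp-1, had 31 UMIs in 6 of the 10 and none in the other 27. Tigit, an inhibitory receptor, had 21 UMIs in 5 of the 10 and 1 UMI in the others, and Izumo1r, the folate receptor 4 gene, had 14 UMIs in 5 of the 10 and none in the others. Batf stood at 471 CPM (343 to 630) against 31.6 CPM (12.7 to 65.2), Icos at 1464 CPM (1232 to 1728) against 344 CPM (271 to 430), and Ctla4 at 356 CPM (246 to 497) against 45.2 CPM (21.7 to 83.1).

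Klf2, Lef1, Bach2 and Id3, picked in the same way, were lower in the 10 Treg cells. Klf2, the factor that drives S1pr1, was found in 1 of the 10 and 21 of the 27, and the 4 Itgb8-bearing cells among the 27 held none. Lef1 stood at 115 CPM (57.4 to 206) against 994 CPM (867 to 1135) and Bach2 at 41.8 CPM (11.4 to 107) against 674 CPM (570 to 791). Id3, a target of antigen receptor signals, had no UMI in the 10 and 37 UMIs in 12 of the 27.

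The members' defining genes were found on both sides of this split. Foxp3 was found in 8 of the 10 and 13 of the 27 cells and stood at 261 CPM (169 to 386) against 145 CPM (98.9 to 204), Il2ra at 251 CPM (161 to 373) against 312 CPM (243 to 395), and Ikzf2 at 1527 CPM (1289 to 1795) against 1415 CPM (1262 to 1581). For Foxp3, Il2ra and Ikzf2 each pair of intervals overlapped, which does not show that the levels were alike.

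Products by which regulatory T cells act summed over a list of 12 genes to 549 CPM (471 to 637) in Treg, 172 CPM (136 to 215) in Pre-Treg and 211 CPM (193 to 231) in mature CD4, with Itgb8 giving 77 of the 174 UMIs in Treg. Only 3 of the 12 genes of that list could be compared between Pre-Treg and Treg, and Itgb8 alone passed. Tgfb1, which encodes transforming growth factor beta 1, stood at 80.5 CPM in Pre-Treg, 75.7 CPM in Treg and 74.0 CPM in mature CD4, with overlapping intervals. Fgl2, a secreted inhibitor of T cells, stood at 58.2, 120 and 96.9 CPM. Areg, Entpd1 and Gzmb had no UMI in any member, and Il10 had 2 UMIs in 1 Treg cell; these 4 were singled out after their values were seen.

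Transcripts of dividing cells, summed over 10 proliferation genes, were far lower in the members than in the label Mature cycling T. The sums were 593 CPM (524 to 669) in Pre-Treg and 442 CPM (372 to 521) in Treg. Mature CD4 held 463 CPM (436 to 492) and Mature cycling T 8790 CPM (8592 to 8992). Mki67 and Top2a, genes of cycling cells chosen here after their values were seen, stood at 2.24 and 2.24 CPM in Pre-Treg and at 6.31 and 9.47 CPM in Treg, against 800 and 1317 CPM in the label Mature cycling T. Of 10 proliferation genes, 3 could be compared with mature CD4 and 3 between Pre-Treg and Treg, with median ratios of 1.05 and 1.35, and none passed the rule.

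Pre-Treg was next set against the labels AgoSel1 and AgoSel2, read here as agonist-selected cells, 128 cells that, like Pre-Treg, were high in Ikzf2. Of 5073 genes, 27 were at least 3-fold higher in Pre-Treg (0.532%) and 128 were higher in the agonist-selected cells (2.52%), 3.06% either way, with a median ratio of 0.894 over all genes. AgoSel2 cells had a median of 11327.5 UMIs and AgoSel1 cells 6077, against 7210 in Pre-Treg.

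Nr4a1, Nr4a2 and Myc, early genes of antigen receptor signalling, were at least 3-fold lower in Pre-Treg than in agonist-selected cells. They were 3 of the 13 genes of that list that could be compared, whose median ratio was 0.548. Nr4a1 stood at 101 CPM in Pre-Treg and 636 CPM in agonist-selected cells, a ratio of 6.32 (4.67 to 8.74) in favour of the latter. Lag3, Tnfrsf9 and Tigit passed among 13 costimulatory and inhibitory receptors, all lower in Pre-Treg. Tigit had no UMI in Pre-Treg and 243 UMIs in 44 agonist-selected cells, 31.8-fold more against a floor of 3 UMIs (lower limit 25.6). Il2rb was lower in Pre-Treg, 24.6 against 101 CPM, and Pmaip1, which encodes the death-promoting protein Noxa, 24.6 against 108 CPM.

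Il7r and Fgl2 were higher in Pre-Treg than in agonist-selected cells, Il7r at 152 against 39.5 CPM and Fgl2 at 58.2 against 12.3 CPM. None of the 9 maturation and homing genes that could be compared passed the rule, with a list median of 1.31. Klf2 stood at 358 CPM in Pre-Treg and 149 CPM in agonist-selected cells. No gene of the Treg transcription factor list passed, Foxp3 included, which had too few cells for the rule in Pre-Treg.

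Named genes higher in Pre-Treg than in agonist-selected cells were Mfsd4a, Calhm6, Klrk1, Fgl2, Cd96, Txndc16, Ms4a4a, Cd79a, Herc3 and Ift80, with ratios from 4.02 to 5.67. Reads of Ms4a4a could be shared with close family members. Klrk1, which encodes the activating receptor NKG2D, had 39 UMIs in 21 Pre-Treg cells, a ratio of 4.97 (2.83 to 8.997). Named genes lower in Pre-Treg were Gpc5, Tigit, Prom1, Fabp5, Kcnq5, Chn2, Lag3, Hspa4l, Egln3 and Morc1. Gpc5, a glypican gene, had no UMI in Pre-Treg and 575 UMIs in 42 agonist-selected cells, 75.2-fold more against a floor of 3 UMIs (lower limit 60.9). Prom1, which encodes the membrane protein prominin, had 1 and 146 UMIs, a ratio of 57.3 (10.1 to 2277).

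Markers of other cell types were checked in the members. Cd8a, which encodes a CD8 chain, and Rag1, a gene of receptor rearrangement, were found in some cells of both labels. Cd8a reached 8 UMIs in a Pre-Treg cell and 14 in a Treg cell, and Rag1 8 and 9. The Pre-Treg cell with 15 Foxp3 UMIs held 6 Cd8a UMIs. The part of CD8 or double-positive cells in the results was not tested. One B cell gene was widespread: Cd79a, part of the B cell receptor complex, was found in 24 of 55 Pre-Treg cells at 271 CPM (225 to 323) and in 27 of 37 Treg cells at 445 CPM (375 to 525). The label B+myeloid held Cd79a at 264 CPM, in 24.1% of its cells. Mature CD4 cells held it at 155 CPM (139 to 172) in 41.1% of cells, DP cells at 0.159 CPM in 0.0577% of cells, and DN, DP-sig and Immature CD4-1 cells at 0, 0 and 2.61 CPM. The B cell markers Cd79b, Ms4a1, Pax5 and Ebf1 together had no UMI in Pre-Treg and 5 UMIs in 4 Treg cells, against 993 UMIs in 46 of 170 B+myeloid cells. Within Pre-Treg, 19 of the 24 cells with Cd79a also held Ikzf2, and Cd79a stood at 378 CPM (311 to 455) with Ikzf2 and 59.8 CPM (27.4 to 114) without. After thinning, Cd79a was found in 20% of Pre-Treg, 43.2% of Treg and 20.2% of mature CD4 cells. In members without any B cell marker UMI, Cd79a included, and with fewer than 5 myeloid UMIs, 31 Pre-Treg and 8 Treg cells, Foxp3 stood at 0 and 115 CPM, Ctla4 in Treg at 68.8 CPM and Il2ra at 4.64 and 229 CPM, on few cells.

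Myeloid and dendritic markers summed to 80.5 CPM in Pre-Treg (0 to 6 UMIs per cell), 161 CPM in Treg (0 to 10) and 58.1 CPM in mature CD4. Cst3 and Cd74 gave most of this, and Lyz2, Csf1r, Itgam, C1qb, Fcer1g and Tyrobp, named with their values known, had no UMI in any member. Cd74, a class II chaperone, had 18 UMIs in 4 of the 10 S100a4-bearing Treg cells and 3 UMIs in the other 27; its part in their profile was not tested. Cells that held a UMI of a B cell marker other than Cd79a or 5 or more myeloid UMIs were then left out. In the remaining 54 Pre-Treg and 31 Treg cells, 38 of 3468 genes were at least 3-fold higher in Treg than in Pre-Treg. Of these 38, 35 were among the 81. The 7 innate lymphocyte markers found summed to 143 CPM in Pre-Treg, 322 CPM in Treg and 122 CPM in mature CD4, and 3 of them had no UMI in the members. The 7 double-negative thymocyte markers, Il2ra among them, summed to 87.3, 376 and 87.2 CPM, and 2 had no UMI in the members. The part of these cell types in the results was not tested. Of 10 epithelial and stromal markers only Pecam1 was detected, at 35.3 CPM in members and 26.4 CPM in mature CD4, and all 5 erythroid markers were at 0.

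Across 13703 genes, the profile of Pre-Treg was most like Mature CD4-2 (Pearson r of log2(CPM + 10) across genes, 0.969), then Mature CD4-1 (0.965) and Mature CD8-1 (0.963), among 20 other labels. Treg was most like Mature CD4-2 (0.941) and then Pre-Treg (0.936). These are descriptions across genes, which are not independent replicates, of labels that share 1 library and differ in depth. With log2(CPM + 50), Pre-Treg was first for Treg and Mature CD4-2 second (0.957).

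In the spatial section of the study, 1 section of Lewis rat thymus, the authors' deconvolution gave each 20-unit bin up to 3 labels, and a bin can hold parts of several cells. Median UMIs per bin were 507 in the medulla and 306 in the cortex. Pre-Treg was the first label of 4.66% of 59534 medullary bins and 0.363% of 409180 cortical bins, a ratio of 12.9, and Treg of 11.6% and 1.04%, a ratio of 11.2. Between the medullary regions named mEFA, read here as the epithelium-free areas of the study's title, and mECA, shares were 5.27% and 4.38% for Pre-Treg and 10.9% and 11.99% for Treg. The medulla stood above the cortex under each alternative, at ratios of 6.04 to 24.8 for Pre-Treg and 5.27 to 15.3 for Treg. The larger cortex still held 32.8% of all Pre-Treg bins and 35.6% of all Treg bins. In segmented cells it held 44.6 and 47.6%, and in bins given 1 type 52.3 and 60.4%. In bins given 1 type the ratio of mEFA to mECA for Pre-Treg was 0.822, against 1.20 in all labelled bins, and in segmented cells that for Treg was 1.02, against 0.906, so neither order between these regions held.

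**Figure D5:**
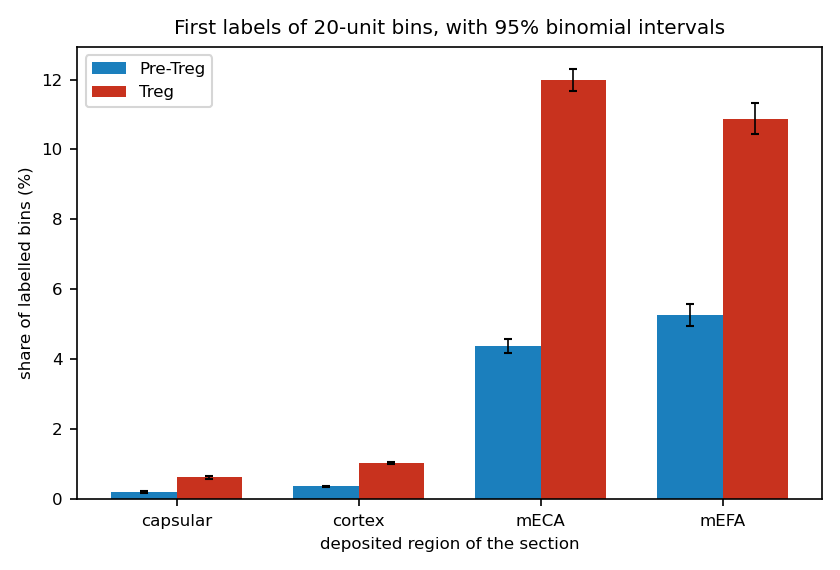
Share of labelled 20-unit bins (percent, axis from 0) whose first label is Pre-Treg or Treg in each deposited region of the section, with exact 95% binomial intervals. Both labels are rare in capsular (0.211 and 0.627%) and cortical bins and more frequent in mECA and mEFA.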

How the data were processed

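The thymocyte library holds whole UMI counts per gene and barcode as deposited by the authors, made with Cell Ranger 8.0.0, Seurat 5.3.0 and build mRatBN7.2 per the submitters' processing notes. Labels, clusters and UMAP coordinates (a score with no unit) are the authors' deposited annotation, and weights of the section's labels are a fraction deposited by the authors. The percent of mitochondrial UMIs deposited by the authors equals that of the 2 mitochondrial ribosomal RNA genes in all 8546 cells.

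UMIs were summed per label and given as CPM with exact Poisson intervals, and shares of cells with exact binomial intervals, at 95%. Ratio intervals are exact and conditional on the summed UMIs. Thinning drew 2000 UMIs per cell (seed 7) and left out 378 shallower cells, none a member. The 16 gene lists (182 entries, 178 different genes found, Trdc not) and the members were chosen with earlier results of these data known. Named genes are the 10 highest and 10 lowest called ratios of each comparison, without genes named only by an identifier and mitochondrial, ribosomal protein or Y-linked genes, plus listed genes with at least 10 UMIs in the members. Some named genes are not reported here. Doublets were neither called nor taken out. Alternatives were filters on cells and UMIs, other totals, thinning and other reference labels; 4 were added after the data were seen. Promoter sequences are from RefSeq (GRCr8). Software was pandas 2.3.3 and NumPy 2.4.6 for counts, SciPy 1.17.1 for intervals and matplotlib 3.10.9 for plots, under Python 3.11.15.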

Additional observations from a re-analysis of the deposited data

How the results depend on the processing

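Across 3391 recomputed values, 752 of 996 recomputed ratios of genes that passed the rule stayed past 3-fold and 10 turned direction. Apart from Batf and Slfn4, the genes that turned had 2 or 3 UMIs in all 37 Treg cells. Fewer than 3 UMIs were set to 3 in these ratios, so the direction of those genes cannot be told. No paired analysis was possible because there was 1 thymocyte library, and the label by cluster alone was not run because the clusters hold no member names. Counts are given as higher and lower in the first group, for members against mature CD4, Pre-Treg against Treg and Pre-Treg against agonist-selected cells.

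With 10 UMIs and no minimum of cells the first 2 comparisons gave 141 and 55 of 9497 genes and 112 and 207 of 5861. The last gave 68 and 261 of 8397. With 50 UMIs the last 2 comparisons gave 4 and 23 of 1428, and 9 and 80 of 3750. With cells thinned to 2000 UMIs the counts were 8 and 2 of 1498 genes, 17 and 12 of 843, and 16 and 55 of 1522. Of the 16 and 55, 3 and 15 were among the 27 and 128 called without thinning. Far fewer genes could be compared than without thinning, so these counts should be read with their totals. Pja1 then came out at 0.673, on 3 or fewer Treg UMIs. Foxp3 stood at 135 CPM in Treg, and Foxp3 with Il2ra was found in 8.11% of Treg cells. Against Mature CD4-1 alone members gave 70 and 13 of 4913 genes, and against Mature CD4-2 alone 19 of 5399 lower. Pre-Treg alone gave 13 and 24 of 4857 genes (Slfn4 0.577) and Treg alone 95 and 69 of 4882. Treg without S100a4 left 14 of 3484 genes higher in Treg, with Batf at 1.70.

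Without the top cell of each gene, 21 and 38 of 3283 genes passed the rule between Pre-Treg and Treg. Of 4918 genes, 17 were higher in Pre-Treg than agonist-selected cells. Foxp3 in Pre-Treg was then 18.6 CPM and Il2ra 27.6 and 228 CPM in Pre-Treg and Treg. Without cells above the 95th percentile, 29 of 3284 genes were higher in Pre-Treg than Treg and Foxp3 in Pre-Treg was 20.03 CPM. The mean of cells' CPM gave 30.8. Without mitochondrial, ribosomal and haemoglobin genes Foxp3 was 80.3 and 282, Ctla4 218 in Treg and Il2ra 83.8 and 460 CPM.

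Without cells with any B cell marker or 5 myeloid UMIs (39 members, of which 8 Treg, and 145 mature CD4), members gave 11 and 48 of 4812 genes. Of 1815 genes, 10 were higher in Treg than Pre-Treg, and of 4626, 12 were higher in Pre-Treg than agonist-selected cells. Foxp3 was 0 and 115, Ctla4 in Treg 68.8 and Il2ra 4.64 and 229 CPM. Ratios came out at 0.743 (Esd), 0.878 (Pja1, Vamp1), 0.675 (Prpsap1, Rnf144a), 0.540 (Sipa1l3) and 0.608 (Zfp455l1). Each was taken against 3 or fewer Treg UMIs, set to 3 where fewer, so no direction can be read from them. Leaving Cd79a out of that marker list, 38 of 3468 genes were higher in Treg than Pre-Treg and Ctla4 in Treg was 91.4 CPM.

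With log2(CPM + 50), Treg and Mature CD4-2 had an r of 0.957. In bins given 1 type, medulla over cortex was 24.8 and 15.3 and mEFA over mECA 0.822 and 0.787, for Pre-Treg and Treg. In segmented cells medulla over cortex was 6.04 and 5.27, and mEFA over mECA 1.02 for Treg. Causes of these changes were not tested. With 37 Treg cells at a median of 8183 UMIs, depth limits the shares of cells with a UMI, which count detection and not expression.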

Other observations

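Levels of Cd79a differed between the labels of the library, given here as a description with no test. It had no UMI in 390 DN or 295 DP-sig cells and stood at 1.02 CPM in Immature CD8-1, 53.9 CPM in Immature CD4-2 and 55.6 CPM in intCD4. Mature CD4-1 held 145 CPM of Cd79a, Mature CD4-2 163 CPM, Mature CD8-1 31.6 CPM and Mature CD8-2 21.7 CPM, and Treg was highest of the 21 labels. Members, 1.08% of the annotated cells, carried 262 Cd79a UMIs, and all other annotated cells 1282.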
